A study of Homo sapiens with 6 samples.

Results

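The genes described here are the enzymes of glycolysis, the transporters and kinases that govern the entry and exit of its carbon, and a set of genes of the cellular response to low oxygen. The list names 33 genes, of which 32 had at least 1 probe set that the platform annotation assigns to them alone, out of 19775 genes measured in this way. SLC16A1 was the exception. These 32 genes held 71 probe sets, and the one with the highest mean over the 6 arrays stood for each gene. They fell into 18 glycolytic enzymes, 4 genes for glucose transporters and pyruvate dehydrogenase kinases, and 10 hypoxia-response genes.

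BL2 is an established human Burkitt lymphoma line, a B cell tumour line of germinal-centre type. Cells grown in complete RPMI were electroporated with scrambled siRNA (3 cultures) or with siRNA against LEF1, for which 4 siRNAs were pooled (3 cultures). The design text of the series calls the replicates biological. The labels name 3 batches, and a batch holds 1 scrambled and 1 LEF1 siRNA array. All 6 cultures were thus electroporated and received siRNA, and no untreated culture was measured here. Results from 1 line cannot be told apart from properties of that line. The sources used here do not give the time from electroporation to harvest.

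Glycolysis splits glucose into pyruvate in the cytosol, and lactate dehydrogenase can turn the pyruvate into lactate. Proliferating B cells and Burkitt lymphoma, with its deregulated MYC, are known for high glycolytic flux. When oxygen is low, the prolyl hydroxylases of the EGLN family no longer mark the transcription factor subunit HIF1A for destruction, and HIF then binds hypoxia-response elements beside genes of glycolysis, blood vessel growth and mitochondrial turnover. LEF1 is a transcription factor that takes up beta-catenin to switch on targets of the Wnt pathway.

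LEF1 was lowered in every batch. Its brightest probe set read 11.09, 10.58 and 11.45 with scrambled siRNA in batches 1, 2 and 3, against 8.21, 8.09 and 8.67 after LEF1 siRNA, so 15.2% of the signal remained (log2 difference -2.71; limma adjusted p = 0.0213 without block and 7.46e-11 with batch as block). Its 2 other probe sets differed by -1.84 and -0.29 (limma adjusted p = 8.51e-10 and 0.00695 with batch as block, 0.00418 and 0.284 without). All 11 measured Burkitt and germinal-centre markers lay above a log2 expression of 8. None of 10 T and NK cell, 6 myeloid, 3 erythroid or 6 epithelial markers did, and 1 of 8 fibroblast and endothelial markers did, COL1A1. With batch as block MME, the germinal-centre antigen CD10, fell by 0.43 and PECAM1, an endothelial marker also found on blood cells, rose by 0.32 (limma adjusted p = 0.000605 and 0.00584). Summed levels of the T and NK cell list ran from 67.0 to 67.4 with scrambled siRNA and from 66.8 to 67.7 with LEF1 siRNA, those of the myeloid list from 38.7 to 39.3 and from 38.3 to 39.2. Those of the erythroid list ran from 21.6 to 21.8 and from 21.66 to 21.96, those of the epithelial list from 39.7 to 40.2 and from 39.8 to 40.5, and those of the fibroblast and endothelial list from 55.4 to 56.1 and from 55.5 to 56.1. The 3′ minus 5′ difference of the ACTB control probe sets was higher in every LEF1 siRNA array (0.18, 0.30 and 0.22 in batches 1 to 3) than in any scrambled siRNA array (0.072, -0.028 and 0.097; exact permutation test, two-sided, p = 0.1, the smallest p that 3 against 3 allow). The same difference of the GAPDH control probe sets was 0.066 ± 0.031 (SD, n = 3) in each group. This measure of RNA integrity or labelling moved with the groups at 1 of the 2 controls, and its part in the differences below was not tested.

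None of the 32 genes passed without block (limma, Benjamini-Hochberg adjustment over all probe sets, threshold 0.05). An unadjusted limma p under 0.05 was seen for 5 members, and for 1956 of all 19775 genes. In that fit 0.0183% of all probe sets passed. With batch as block, which compares the groups within each batch, 9 of 32 genes passed. Of these 6 rose, or 18.8% of the members against 6.73% of all genes, and 3 fell, or 9.38% against 1.7%. Over all probe sets that fit called 6.09%. All 32 members lay at or above the median level of all probe sets, against 12631 of 19775 genes. The part of level in the shares of members called, here and between batches below, was not tested. The genes that rose were PFKM, PFKFB3, ALDOC, SLC2A3, EGLN1 and BNIP3L, and those that fell were PFKP, ENO2 and VEGFA. All 9 calls thus rest on the comparison within batches. In such bulk samples fewer cells of a kind and less RNA per cell cannot be told apart. The median difference over the 32 genes was -0.022, and over all genes 0.019. Higher values with LEF1 siRNA in 3 of 3 batches were seen for 12 members (37.5%, against 26% of all genes) and lower values in 3 of 3 for 10 (31.2%, against 13.7%).

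**Figure D1:**
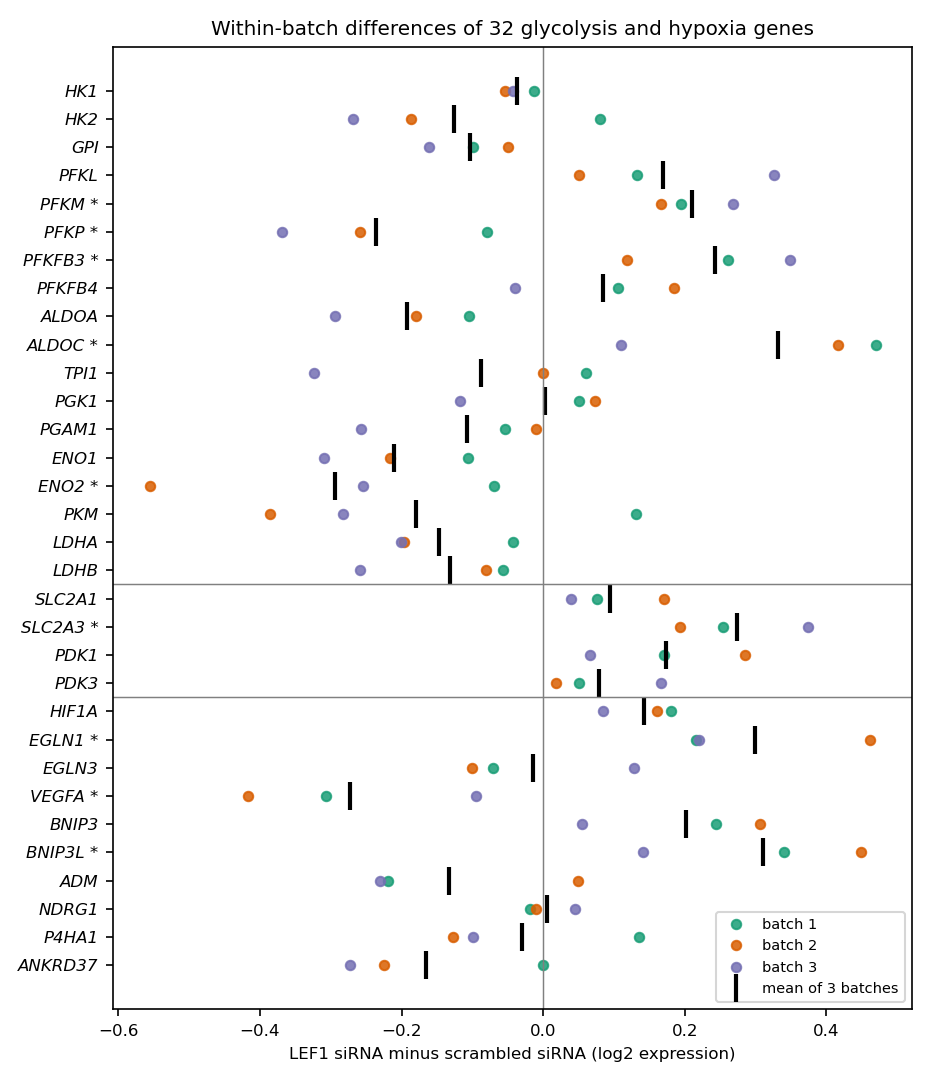
Log2 difference between LEF1 siRNA and scrambled siRNA (horizontal axis) within batches 1, 2 and 3 (coloured points) and their mean (black bars) for 32 genes; lines separate enzymes, transporters with kinases, and hypoxia-response genes, and an asterisk marks a limma adjusted p under 0.05 with batch as block. The 3 points lie to the right of 0 for 12 genes and to the left for 10.

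Phosphofructokinase catalyses the committed step of glycolysis, and its 3 isoforms did not move as 1. PFKM, the muscle-type isoform, read 11.21, 11.21 and 11.19 with scrambled siRNA in batches 1, 2 and 3, against 11.41, 11.37 and 11.46 with LEF1 siRNA. The groups did not overlap, and the scrambled arrays had an SD of 0.012 (n = 3). The rise was 0.21 ± 0.057 (SE; limma adjusted p = 0.0434 with batch as block, 0.268 without). PFKP, the platelet-type isoform, read 11.22, 11.30 and 11.59 with scrambled siRNA and 11.14, 11.04 and 11.22 with LEF1 siRNA. It was lower in each batch, although batch 3 after LEF1 siRNA reached the level of batch 1 after scrambled siRNA, so the groups overlapped. PFKP fell by 0.24 (SE 0.064; limma adjusted p = 0.0439 with batch as block, 0.63 without). A second PFKP probe set, at about 7, differed by 0.01. PFKL, the liver-type isoform, read 8.92, 8.99 and 8.96 against 9.05, 9.04 and 9.29, with no overlap, but did not pass (0.17, 95% interval 0.033 to 0.31; limma adjusted p = 0.161 with batch as block), and its other probe set differed by -0.0045.

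PFKFB3 and PFKFB4 are bifunctional enzymes that make and break down the sugar phosphate that activates phosphofructokinase. PFKFB3 read 7.92, 7.96 and 8.69 with scrambled siRNA and 8.19, 8.08 and 9.04 with LEF1 siRNA, so it was higher in each batch while the groups overlapped widely. Its rise of 0.24 ± 0.061 (SE) passed with batch as block (limma adjusted p = 0.0304, and 0.94 without block) but under none of the 4 other scalings of the arrays (limma adjusted p = 0.07 to 0.206). PFKFB4 differed by 0.08 (95% interval -0.047 to 0.21) and did not pass.

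Aldolase splits the doubly phosphorylated sugar, and here too the isoforms differed. ALDOC, the brain-type isoform, read 8.30, 8.42 and 8.55 with scrambled siRNA and 8.77, 8.84 and 8.66 with LEF1 siRNA. All LEF1 siRNA arrays lay above all scrambled ones. The rise of 0.33 ± 0.070 (SE), or 1.26-fold, was the largest among the 18 enzymes (limma adjusted p = 0.0113 with batch as block, 0.244 without). ALDOA, the ubiquitous isoform, read 13.18, 13.17 and 13.54 against 13.07, 12.99 and 13.25 at its brightest probe set, a difference of -0.19 that did not pass (limma adjusted p = 0.0777 with batch as block). A second ALDOA probe set fell by 0.26 (limma adjusted p = 0.0319 with batch as block), and the remaining one differed by 0.0011. All 3 carry the suffix that marks probes which may also bind related sequences, and ALDOA has processed relatives in the genome, so their values are uncertain. The brightest PFKL probe set carries that suffix too.

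Enolase makes phosphoenolpyruvate. ENO2, known as the neuronal isoform, read 8.72, 9.14 and 8.75 with scrambled siRNA and 8.65, 8.58 and 8.49 with LEF1 siRNA. Every LEF1 siRNA value lay below every scrambled one, and the scrambled array of batch 2 stood highest. ENO2 fell by 0.29 (SE 0.077; limma adjusted p = 0.0375 with batch as block, 0.556 without). Its within-batch differences of -0.07, -0.56 and -0.25 spread widely. ENO1, the ubiquitous isoform, read 13.24, 13.25 and 13.60 against 13.14, 13.04 and 13.29, a difference of -0.21 that missed the threshold (limma adjusted p = 0.0544 with batch as block). Of its 3 other probe sets none passed.

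**Figure D2:**
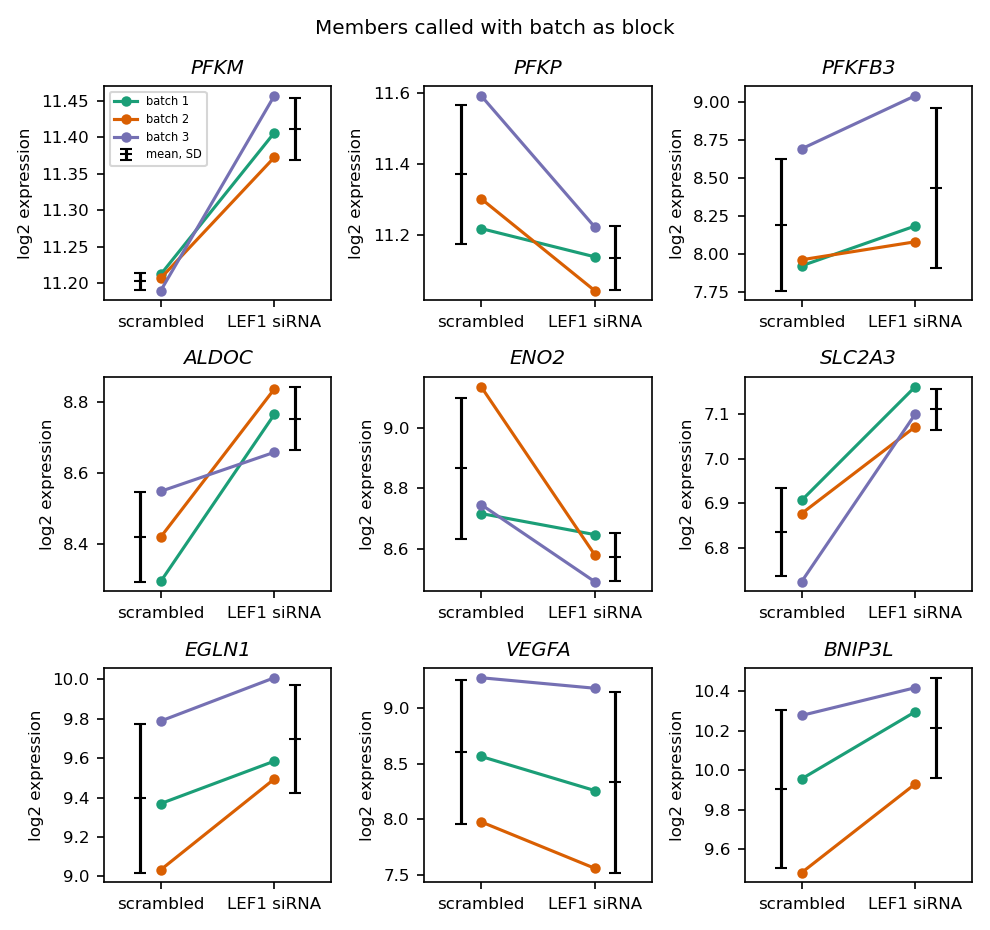
Log2 expression of the 9 genes that passed with batch as block, with scrambled siRNA and LEF1 siRNA arrays joined within each batch and group means with SD (n = 3) beside them; each vertical axis has its own range. All 3 lines of each gene slope the same way, while the groups overlap for PFKP, PFKFB3, EGLN1, VEGFA and BNIP3L.

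A difference between the probe sets of 2 isoforms within an array is not moved by shifting whole arrays, as equal medians or spike-ins do, though the size of that difference says nothing of their relative amounts. PFKM minus PFKP was -0.0056, -0.095 and -0.40 with scrambled siRNA and 0.27, 0.33 and 0.24 with LEF1 siRNA. The change was 0.27, 0.42 and 0.64 in batches 1 to 3, or 0.45 ± 0.18 (SD, n = 3). ALDOC minus ALDOA changed by 0.57, 0.60 and 0.40, or 0.52 ± 0.10 (SD, n = 3). Both pairs changed in the same direction in 3 of 3 batches, with no overlap between the groups. ALDOC and ALDOA differ in brightness, and shifts that depend on brightness can move such a difference. Median differences in batches 1 to 3 were 0.056, 0.042 and 0.030 for all probe sets at a log2 expression of 8 to 10. For those at or above 13 they were 0.045, -0.029 and -0.20. The part of brightness in the ALDOC minus ALDOA change was not tested. ENO2 minus ENO1 changed by -0.083 ± 0.22, HK1 minus HK2 by 0.089 ± 0.16 and LDHB minus LDHA by 0.015 ± 0.090 (SD, n = 3 each), with mixed signs over the batches. These 5 pairs were chosen with the values in view, so the changes are given as a description, with no test.

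**Figure D3:**
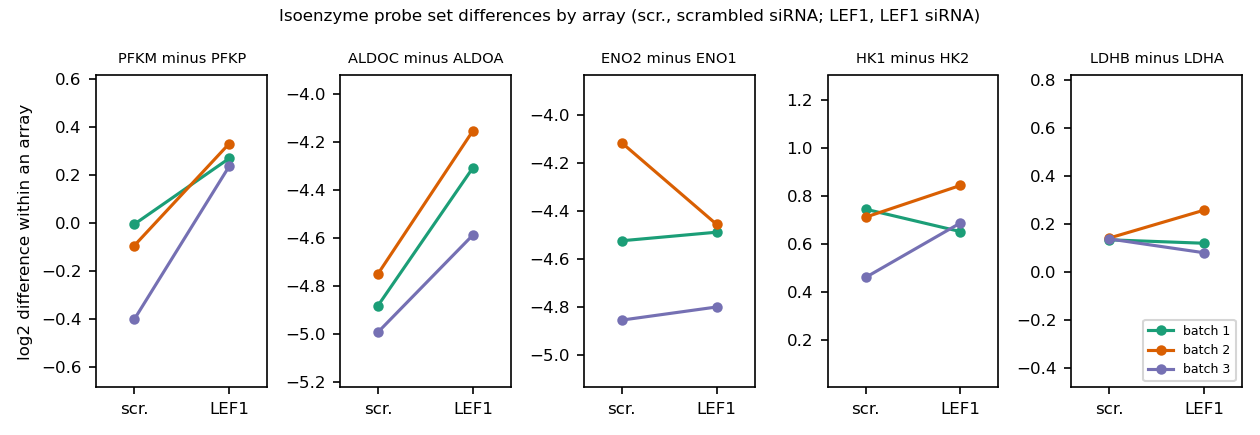
Difference in log2 expression between the probe sets of 2 isoforms within each array (vertical axis, of the same span in each panel), for scrambled and LEF1 siRNA arrays joined by batch. PFKM minus PFKP and ALDOC minus ALDOA are higher with LEF1 siRNA in 3 of 3 batches, whereas the lines of the other 3 pairs cross or differ in slope.

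None of the other 9 enzymes, which act along the trunk of the pathway, passed with limma in either fit at its brightest probe set. Hexokinase traps glucose in the cell, and HK1 and HK2 differed by -0.04 and -0.13. GPI, which converts glucose phosphate to fructose phosphate, differed by -0.10 and TPI1, which interconverts the triose phosphates, by -0.09. PGK1, which makes the first ATP of the pathway, differed by 0.0023, with a 95% interval of -0.13 to 0.13 with batch as block. Its other probe sets differed by -0.13 to 0.10, and none passed. PGAM1, the mutase that follows PGK1, differed by -0.11. PKM, the pyruvate kinase, read 12.67, 13.04 and 12.92 against 12.80, 12.66 and 12.63, a difference of -0.18 that was positive in batch 1 and negative in batches 2 and 3 (limma adjusted p = 0.278 with batch as block). LDHA, which favours lactate formation, read 13.78, 13.77 and 14.04 against 13.73, 13.57 and 13.84, and LDHB, the isoform of oxidative tissues, read 13.91, 13.91 and 14.18 against 13.86, 13.83 and 13.92. At these probe sets both were lower in each batch, by 0.15 and 0.13 on average, and neither passed (limma adjusted p = 0.201 and 0.284 with batch as block). The other LDHB probe set, of like brightness, differed by 0.0036, -0.0095 and -0.22 in batches 1 to 3. Both LDHB probe sets carry the suffix that marks probes which may also bind related sequences.

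As a group the 18 enzymes had a mean difference of -0.045 and a median of -0.11, against 0.031 and 0.019 for all genes. Of the 18, 9 were lower and 4 higher in 3 of 3 batches, against 13.7% and 26% of all genes. The mean of the enzymes was 0.048 in batch 1, -0.065 in batch 2 and -0.12 in batch 3. The brightness of the probe sets moved with this. Of the 9 members at or above a log2 expression of 12, 8 were lower on average with LEF1 siRNA. The share of all probe sets of that brightness that were lower was not counted. All 516 probe sets at 12 to 13 had median differences of 0.050, -0.037 and -0.12 in batches 1 to 3. For the 6 members at or above 13 (ALDOA, PGK1, PGAM1, ENO1, LDHA and LDHB) the median difference was -0.055, -0.13 and -0.26 in batches 1, 2 and 3. All 358 probe sets of that brightness had medians of 0.045, -0.029 and -0.20. The median difference of these 6 enzymes was thus below that of all probe sets of that brightness, themselves included, in each batch. Both medians were lowest in batch 3. These brightness limits were chosen after the values were seen, and the part of brightness in the enzyme differences was not tested.

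Glucose enters through transporters. SLC2A3, a high-affinity transporter of the GLUT family, read 6.91, 6.88 and 6.73 with scrambled siRNA and 7.16, 7.07 and 7.10 with LEF1 siRNA, with no overlap. The rise was 0.27 ± 0.059 (SE; limma adjusted p = 0.0131 with batch as block, 0.244 without). This probe set carries the suffix that marks probes which may also bind related sequences. A second probe set rose by 0.31 (limma adjusted p = 0.00588 with batch as block) and the remaining one differed by 0.11. All 3 lay close to or under the median of 6.91 of all probe sets, where values hold much background, so the change of the transcript itself may be understated and its presence at a functional level is not shown. SLC2A1, the basal transporter, read 8.02, 7.82 and 8.39 against 8.09, 7.99 and 8.43 and did not pass (0.09, 95% interval -0.029 to 0.22). PDK1 and PDK3 encode kinases that switch off pyruvate dehydrogenase and so hold pyruvate out of the mitochondrion. At their brightest probe sets both were higher in each batch, by 0.17 and 0.08 on average, and did not pass (limma adjusted p = 0.126 and 0.587 with batch as block). The other PDK1 probe sets differed by -0.035 and 0.16, with mixed signs over the batches. Those of PDK3 differed by 0.011 to 0.15. The one at 0.011 had mixed signs, and the rest were higher in each batch. None of these passed.

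Oxygen sensing came next. EGLN1, the main prolyl hydroxylase acting on HIF1A and itself a HIF target, read 9.37, 9.03 and 9.79 with scrambled siRNA and 9.59, 9.49 and 10.01 with LEF1 siRNA. It was higher in each batch while the groups overlapped. EGLN1 rose by 0.30 ± 0.064 (SE; limma adjusted p = 0.0118 with batch as block, 0.834 without). Its 3 dimmer probe sets differed by 0.05, -0.07 and -0.0095, and the mean over all 4 did not pass (limma adjusted p = 0.555 with batch as block). HIF1A read 11.53, 11.26 and 11.39 against 11.71, 11.42 and 11.48, higher in each batch by 0.14 on average, and did not pass (limma adjusted p = 0.197 with batch as block). Protein stability of HIF1A is not measured by these arrays. EGLN3 differed by -0.01, at a level near the median of all probe sets.

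Targets of HIF moved in opposite directions. BNIP3L, a receptor for the removal of mitochondria, read 9.96, 9.48 and 10.28 with scrambled siRNA and 10.30, 9.93 and 10.42 with LEF1 siRNA. It was higher in each batch, with overlapping groups, and rose by 0.31 ± 0.065 (SE), or 1.24-fold (limma adjusted p = 0.0113 with batch as block, 0.827 without). Its second probe set differed by 0.15 (limma adjusted p = 0.163 with batch as block). The related mitophagy receptor gene BNIP3 read 9.92, 9.61 and 10.55 against 10.16, 9.92 and 10.60, a difference of 0.20 that did not pass (limma adjusted p = 0.0797 with batch as block), and its other probe set differed by -0.0052. VEGFA, the vascular growth factor, read 8.56, 7.98 and 9.27 with scrambled siRNA and 8.26, 7.56 and 9.18 with LEF1 siRNA. The groups overlapped almost fully, yet each batch showed a lower value with LEF1 siRNA, and VEGFA fell by 0.27 (SE 0.066; limma adjusted p = 0.0249 with batch as block, 0.962 without). Its 3 other probe sets differed by -0.09, -0.18 and -0.09 and did not pass.

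The other hypoxia-response genes did not pass. The vasodilator peptide gene ADM differed by -0.13 and ANKRD37, an ankyrin repeat gene induced by HIF, by -0.17 (95% interval -0.3 to -0.029 with batch as block, without adjustment for multiple tests; limma adjusted p = 0.178). P4HA1, a collagen prolyl hydroxylase, differed by -0.03 and NDRG1, a stress-induced gene, by 0.0058. The 10 genes together had a mean difference of 0.034 and a median of -0.0044, against a median of 0.019 over all genes. The mean was 0.050, 0.055 and -0.0024 in batches 1, 2 and 3, and scaling to poly-A spike-ins turned it to -0.091.

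The calls differed in how well they held. ENO2, PFKP and VEGFA passed with batch as block under each of the 4 other scalings (by quantiles, by equal medians, by cyclic loess and by spike-ins of poly-A RNA). ALDOC, BNIP3L, EGLN1 and SLC2A3 passed under 3 and missed the threshold with poly-A spike-ins (limma adjusted p = 0.0635, 0.0843, 0.0956 and 0.123), and PFKM passed under 2 (0.0926 with equal medians and 0.345 with poly-A spike-ins). Poly-A spike-ins are control transcripts added to the RNA before labelling, and scaling to them lowers every difference by 0.12 and called 0 members higher and 13 lower. With batch as block that scaling called 7673 of all 54613 probe sets, and 10.8% of these were higher. The turn to lower calls was thus not particular to the members. Leaving out batch 2 ended all but the calls of PFKFB3 and SLC2A3 (limma adjusted p from 0.092 for ALDOC to 0.38 for ENO2). Leaving out batch 1 ended those of PFKFB3 and PFKM (0.0614 and 0.0853), and leaving out batch 3 those of PFKFB3, PFKM, PFKP and SLC2A3 (0.143, 0.175, 0.226 and 0.0584). With the mean over a gene's probe sets EGLN1, PFKP and VEGFA missed the threshold (0.555, 0.205 and 0.0746). Only 5 of the called genes had several probe sets. ALDOC, ENO2, PFKFB3 and PFKM had 1 each, so the mean left their values as they were and could not test their calls. With robust and trended eBayes PFKM and PFKP missed the threshold (0.107 and 0.0825).

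Levels of many of these genes also differed between batches. In a limma F test of the batch terms, added after the values were seen, 17 members (53.1%) differed between batches, against 17.4% of all genes. These were 8 of the 10 hypoxia-response genes, 3 of the 4 transporter and kinase genes, and 6 of the 18 enzymes. The range of the 3 batch means exceeded the siRNA difference for 24 members (75%, against 78.3% of all genes), a share near that of all genes. The median batch range was 0.64 for the hypoxia-response genes and 0.21 for the enzymes, against 0.14 for all genes. Batch is a label of the series, and the sources used here do not say what differed between batches.

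VEGFA had the widest batch range among the members, 1.46 or 2.75-fold, with batch means of 8.41, 7.77 and 9.22 (limma F test adjusted p = 1.25e-06). ANKRD37 read 8.56, 8.02 and 9.26 with scrambled siRNA and 8.56, 7.79 and 8.99 with LEF1 siRNA, a batch range of 1.22. ADM read 12.04, 10.84 and 12.15 against 11.83, 10.89 and 11.92, so both arrays of batch 2 lay about 1 log2 unit below the rest, with a batch range of 1.17. BNIP3, BNIP3L and EGLN1 had batch ranges of 0.81, 0.64 and 0.64, and PFKFB3, also a known HIF target, 0.84. All 8 hypoxia-response genes that passed the F test had their lowest mean in batch 2, as had 1773 of the 3441 genes called over the whole array. Among the enzymes 14 of 18 (77.8%) had their highest mean in batch 3, against 40.9% of all genes, and their batch calls moved with the scaling. ALDOC and PFKM, by contrast, had batch ranges of 0.098 and 0.034, below their siRNA differences. The F test called 3 enzymes after quantile normalization, 7 with equal medians, 2 by cyclic loess and 10 when arrays were scaled to the poly-A spike-ins. For the hypoxia-response genes these counts were 8, 8, 8 and 10. The share of all genes called was 10.7%, 19.1%, 10.5% and 85.2% in the same order, and the spike-ins themselves lay low in batch 2 (medians of -0.23 and -0.15 around their mean) and high in batch 3 (0.10 and 0.28).

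**Figure D4:**
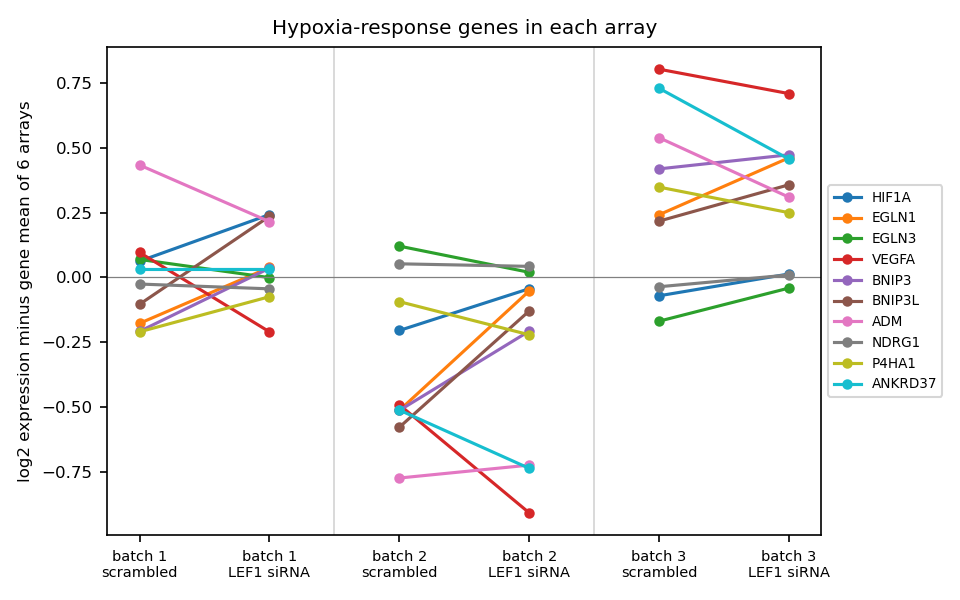
Log2 expression of the 10 hypoxia-response genes in each array (vertical axis), as the difference from the gene's mean over 6 arrays, with the arrays of a batch joined. Most genes lie below 0 in both arrays of batch 2 and above 0 in both of batch 3, while EGLN3 and NDRG1 stay near 0.

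**Figure D5:**
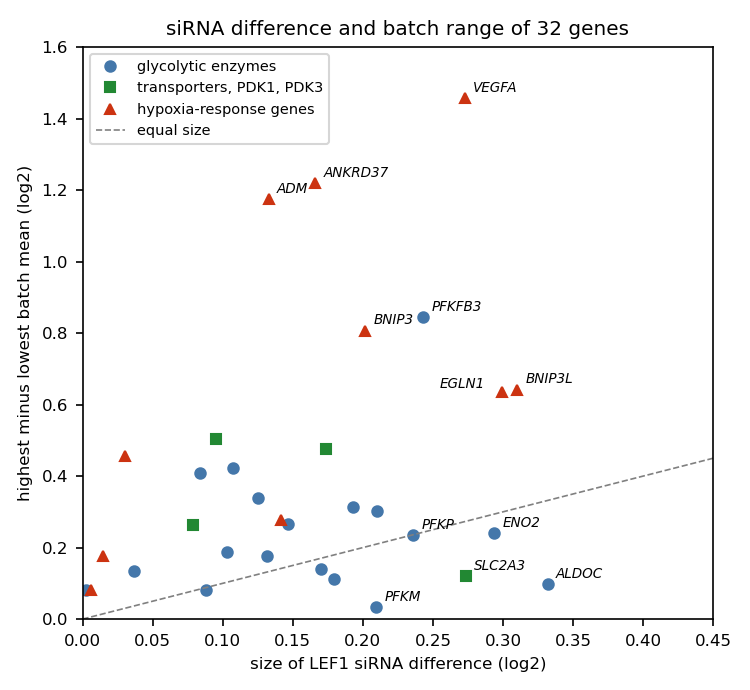
Highest minus lowest batch mean (vertical axis, log2) against the size of the LEF1 siRNA difference (horizontal axis, log2) for 32 genes; the dashed line marks equal size. VEGFA, ANKRD37 and ADM lie far above the line, whereas ALDOC, SLC2A3, PFKM, PKM, ENO2, PFKL, TPI1 and PFKP lie below it.

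The start-site sequences of some of these genes are shown because HIF is known to bind a core of ACGTG or GCGTG, and because LEF1 belongs to factors that bind CTTTGA. RefSeq promoter windows on GRCh38.p14 matched 28 of the 33 genes. In the 250 bases before a start site, ACGTG on either strand was found for 17 of these 28 genes (60.7%) and for 21.7% of all genes with a window. Over single windows the shares were 39.2% and 18.5%. GCGTG was found for 15 members (53.6%, against 36.2% of all genes), but over single windows its share was 31.4% for members and 32.2% for all. Members had 51 windows over 28 genes and all genes 35116 over 27305, so members had more chances of a match per gene. The E-box CACGTG, which contains ACGTG and is also bound by MYC, was found for 7 members (25%, against 7.73%; over single windows 13.7% and 6.34%). CTTTGA was found for 2 members, HK1 and PFKFB3 (7.14%, against 13.5%; over single windows 3.92% and 11.2%). Many members are on the list as known HIF targets, so these shares are a description and show no binding in BL2 cells. The windows below belong to members with 1 window each that holds ACGTG, 3 called after LEF1 siRNA (ALDOC, which rose, ENO2, which fell, and EGLN1, which rose) and 2 whose levels differed between batches (BNIP3 and ANKRD37). They run 5′ to 3′ on the strand of the gene and end at the base before the start site, and capitals mark ACGTG on either strand. They lie at chr17:28576896-28577145 (ALDOC, minus strand), chr12:6914330-6914579 (ENO2, plus strand), chr1:231422288-231422537 (EGLN1, minus strand), chr10:131981924-131982173 (BNIP3, minus strand) and chr4:185396591-185396840 (ANKRD37, plus strand).
ALDOC: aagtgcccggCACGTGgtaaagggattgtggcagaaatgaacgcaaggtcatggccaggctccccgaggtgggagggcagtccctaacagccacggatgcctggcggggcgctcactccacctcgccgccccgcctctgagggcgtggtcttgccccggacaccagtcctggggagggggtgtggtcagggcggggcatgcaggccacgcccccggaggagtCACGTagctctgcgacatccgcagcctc
ENO2: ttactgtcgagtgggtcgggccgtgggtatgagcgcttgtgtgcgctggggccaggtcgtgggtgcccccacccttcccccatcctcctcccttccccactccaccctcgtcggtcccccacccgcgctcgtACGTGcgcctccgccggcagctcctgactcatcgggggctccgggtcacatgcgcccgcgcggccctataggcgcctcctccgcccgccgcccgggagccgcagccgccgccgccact
EGLN1: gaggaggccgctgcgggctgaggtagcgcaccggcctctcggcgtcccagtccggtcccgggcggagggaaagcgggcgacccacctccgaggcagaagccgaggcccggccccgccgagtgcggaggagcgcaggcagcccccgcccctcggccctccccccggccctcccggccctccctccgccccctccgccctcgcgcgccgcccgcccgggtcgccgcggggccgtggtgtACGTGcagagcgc
BNIP3: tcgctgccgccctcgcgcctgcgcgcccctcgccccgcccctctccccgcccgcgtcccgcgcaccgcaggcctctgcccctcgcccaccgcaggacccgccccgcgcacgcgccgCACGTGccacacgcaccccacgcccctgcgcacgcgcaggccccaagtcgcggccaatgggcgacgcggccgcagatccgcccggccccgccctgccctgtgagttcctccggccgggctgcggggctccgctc
ANKRD37: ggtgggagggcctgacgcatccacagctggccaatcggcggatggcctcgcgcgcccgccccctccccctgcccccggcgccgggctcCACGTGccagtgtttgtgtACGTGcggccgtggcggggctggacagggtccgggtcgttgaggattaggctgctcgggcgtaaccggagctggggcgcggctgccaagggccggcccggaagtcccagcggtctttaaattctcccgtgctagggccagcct
In ALDOC, BNIP3 and ANKRD37 a stretch of 6 capitals is the palindrome CACGTG, which reads as ACGTG on both strands. ALDOC has a second match that begins 28 bases before the start site, and EGLN1 has its match 13 bases before it. SLC2A3, SLC16A1, VEGFA, BNIP3L and NDRG1 had no matched window.

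Genes of the same pathways outside the list moved as follows with batch as block. Of 23 measured further isoenzymes and transporters, 2 rose and 1 fell, against 6.73% and 1.7% of all genes. The one that fell was FBP1, the bisphosphatase that opposes phosphofructokinase in gluconeogenesis. It read 11.36, 11.10 and 11.24 with scrambled siRNA and 10.97, 10.70 and 10.69 with LEF1 siRNA, with no overlap. FBP1 fell by 0.45 (SE 0.059; limma adjusted p = 0.000623 with batch as block, 0.202 without), and it passed with batch as block under all 4 other scalings and without any 1 batch. PFKFB2, a further enzyme of the PFKFB family, rose by 0.33 and SLC2A6, a transporter of the GLUT family, by 0.35 (limma adjusted p = 0.00496 and 0.00805 with batch as block). Both missed the threshold with poly-A spike-ins (0.0571 and 0.0505) and without batch 2 (0.0565 and 0.0891). GAPDH, named here after its values were seen because it joins the listed enzymes in the trunk of the pathway, read 14.35, 14.48 and 14.59 against 14.27, 14.22 and 14.31, a difference of -0.21 (limma adjusted p = 0.0572 with batch as block).

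Of 12 genes of pyruvate entry into mitochondria 1 rose and 0 fell with batch as block, against 6.73% and 1.7% of all genes. PDP1, the phosphatase that reverses the action of the PDK kinases, rose by 0.27 (limma adjusted p = 0.00968 with batch as block; 0.127 with poly-A spike-ins and 0.0638 without batch 2). Of 9 pentose phosphate pathway genes 0 passed with limma in either fit, and PRPS1 and PGLS differed by -0.13 and 0.12. At an unadjusted limma p under 0.05 lay 1 of the 9 with batch as block and 0 without block. Of all 19775 genes 4182 and 1956 did. Among 17 HIF subunits and oxygen-sensing genes 3 rose and 0 fell, against the same shares of all genes. EP300, a coactivator of HIF and many other factors, rose by 0.38 (limma adjusted p = 0.00671 with batch as block; 0.0799 without batch 2), and ARNT, the DNA-binding partner of HIF1A, by 0.27 (0.0142; 0.137 with poly-A spike-ins). CITED2, which competes with HIF1A for EP300, rose by 0.28 (0.0383), but passed under 1 of the 4 other scalings and not without batch 2 (0.379). Of 33 other hypoxia targets 2 rose and 0 fell, a share of rises near the 6.73% of all genes. HMOX1, the haem oxygenase gene, rose by 0.24 (0.0277) and passed under 1 of the other scalings, and BHLHE40, a circadian repressor, rose by 0.38 (0.0429) with within-batch differences of 0.79, 0.36 and -0.0067 and passed under none. Neither passed without batch 2 (0.199 and 0.133) or without batch 1 (0.0694 and 0.227). None of these genes passed without block.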

How the data were processed

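Per the labels' protocols, 0.3 µg total RNA of each of 6 BL2 cultures was amplified to biotin-labelled cRNA from the 3′ end, the part of a transcript that such arrays read best. The deposited table holds a log2 value for each probe set on each array. The authors' background correction, normalization and summarisation were not given in the sources used here, and the log2 scale was read from the range of 5.45 to 15.0. Of 54675 probe sets, 62 controls were kept out of the tests. Symbols came from the platform annotation.

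Differences were fitted with limma 3.58.1 (lmFit, eBayes) in R 4.3.3 over 54613 probe sets, with Benjamini-Hochberg adjustment, a two-sided threshold of 0.05, and batch either left out or taken as block. The blocked fit has 2 residual degrees of freedom against 12.0 prior ones, and thus takes most of its error from the pooled variance. The batch label pairs the arrays. Across probe sets, the 2 arrays of a batch deviated together from their group means (correlations of 0.477, 0.493 and 0.621 in batches 1 to 3). The number of arrays limits the precision, and low values hold much background, which compresses differences.

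The members and lists were chosen with earlier results of these data known. Every member is accounted for, and values on all arrays are given for those that passed in either fit and, among the rest, for the 4 with the highest mean and the 4 with the largest difference above the median level. Values of PFKL, SLC2A1, HIF1A, ADM and ANKRD37 on all arrays were added after they were seen. From each other list up to 4 called genes are named, or up to 2 as values. The fits were checked on simulated data, which does not test the calls made on these arrays. Alternatives covered the block, scaling, dim probe sets, the probe set per gene, eBayes settings and leaving out arrays or batches. Figures used matplotlib 3.10.9.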

Additional observations from a re-analysis of the deposited data

How the results depend on the processing

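Without block the count of probe sets called was 10, and 23 after quantile normalization, 23 after cyclic loess and 6 with robust and trended eBayes, with 0 members called under each. With batch as replicate block it was 3328, with 6 members higher and 3 lower. With that block, quantile normalization gave 3315 probe sets (5 members higher, 4 lower), equal medians 2785 (4 and 4), poly-A spike-in scaling 7673 (0 and 13), cyclic loess 3240 (5 and 3), leaving out dim probe sets 3465 (6 and 4) and robust and trended eBayes 2938 (5 and 2). The mean over a gene's probe sets gave 5 members higher and 1 lower, and the most variable probe set 6 and 4. The replicate block leaves mean differences as they are.

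The share of higher calls among all calls was 75.2% as deposited and 10.8% with poly-A spike-ins, where the median over all probe sets was -0.11. It was 66.2% with equal medians, 60.1% by cyclic loess and 56.1% by quantiles. The mean of the glycolytic enzymes was -0.17 with poly-A spike-ins. That of the hypoxia-response genes was 0.00096 after quantile normalization and -0.091 with poly-A spike-ins, and 0.069 with the transporters and kinases added. That addition took the enzyme mean to -0.0086, and the mean over a gene's probe sets took it to -0.015.

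Leaving out arrays or batches gave 0 to 3880 probe sets over both fits (0 to 8 without block; with the replicate block 3880 without batch 1, 1407 without batch 2 and 3626 without batch 3), 0 to 4 members higher, 0 to 6 lower and LEF1 differences of -2.94 to -2.51. LEF1 lost its call without block when scrambled siRNA replicate 1 or 3 or LEF1 siRNA replicate 1 or 2 was left out (limma adjusted p = 0.106, 0.0771, 0.101 and 0.241). The enzyme mean ran from -0.096 to 0.035, the last without scrambled siRNA replicate 3. The hypoxia-response mean ran from -0.13 without scrambled siRNA replicate 2, over -0.11 without LEF1 siRNA replicate 3, to 0.19. Leaving out 1 array unpairs a batch, so batch differences enter these means. The number of members differing between batches was 12 to 20 without 1 array, 12 to 21 under the 4 other scalings, where the share of all genes ran from 10.5% to 85.2%, and 18 without dim probe sets. The share of all genes is not given for the fits without 1 array or without dim probe sets. Those counts thus cannot be set against all genes. Since the values were on a log2 scale, no pseudocount was tried.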

Other observations

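Of the 33 other hypoxia targets 15 passed the F test for batch (limma, Benjamini-Hochberg adjustment; 45.5%, against 17.4% of all genes). Their order of batches was mixed: 9 of 33 (27.3%) had their lowest mean in batch 2, against 31.3% of all genes, and so had 7 of the 15 that passed (46.7%), against 51.5% of all genes that passed. The genes below were named after their values were seen. HILPDA, a lipid droplet gene, read 11.27, 9.82 and 11.07 with scrambled siRNA in batches 1, 2 and 3 and 11.43, 9.60 and 10.77 with LEF1 siRNA, a batch range of 1.64 or 3.12-fold. DDIT4, an inhibitor of mTOR signalling, read 11.74, 10.26 and 11.85 against 11.86, 10.54 and 11.85, a batch range of 1.45. BHLHE40 had batch means of 8.90, 7.64 and 9.04, and the histone demethylase gene KDM3A 9.14, 8.88 and 9.78. In both groups these 4 genes were lowest in batch 2, while their siRNA differences ran from -0.12 for HILPDA to 0.38 for BHLHE40. INSIG2 and WSB1 were lowest in batch 1 (7.49 and 9.53) and highest in batch 3 (8.05 and 10.14).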
